A study of Rattus norvegicus with 9 samples.

Results

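The imprinted Dlk1-Dio3 miRNA cluster was followed in rat retina through 73 of the 465 mature miRNAs that the study counted. A mature miRNA was a member when its name carried a number of a hairpin of this cluster, whatever its letter, copy or arm. The study sequenced small RNA from dissected retinas of wild type Sprague Dawley rats, with 3 libraries in each of 3 groups. Rats with oxygen-induced retinopathy were taken at postnatal day 29 (OIR P29) or at postnatal day 14 (OIR P14), and sham rats at postnatal day 14 (sham P14). In this model of the retinopathy of premature infants, altered oxygen after birth halts the growth of retinal vessels, and abnormal vessels follow. Per the labels the triplicates are biological, but they do not give the number of animals in a library, so a p-value here measures only the spread among 3 such libraries, which may in part be technical. OIR P29 and OIR P14 differ in age as well as in the stage of the model, and the effects of these cannot be told apart. The RNA came from whole retina, in which fewer cells of a type cannot be told apart from less RNA in each cell.

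The Dlk1-Dio3 region is an imprinted domain. Its small RNAs, together with the long noncoding RNA Meg3, are made from the chromosome inherited from the mother, while the protein genes Dlk1, Rtl1 and Dio3 are active on the one from the father. A miRNA hairpin is cut into a 5p and a 3p arm, and the arm that is kept directs an Argonaute protein to messenger RNAs that pair with its seed, bases 2 to 8. Several miRNAs of the region run antisense to Rtl1 and can direct its cleavage, and others, miR-134 among them, act in the dendrites of rat hippocampal neurons.

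In the RefSeq annotation of GRCr8 the 43 member hairpins all lay on the plus strand of chromosome 6, and their order there was that of the selection rule. They ran from miR-770 to miR-410 at chr6:134298094-134579828, a span of 281.735 kb counted from the first to the last mature base. Meg3 held miR-770, and the span of Rtl1 held miR-431, miR-433, miR-127, miR-434 and miR-136. Stretches without a member, 23.099 kb before miR-370 and 188.901 kb after it, split the members into 20 at the miR-770 to miR-136 end, 2 from miR-370 and 51 in the miR-379 to miR-410 stretch. Of the 43 hairpin names, 30 had both arms listed. Of the 43 numbers in the rule, 2 had no row in these tables and were not analysed here.

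RefSeq gave a mature sequence for 71 of the 73 members. The first set, with the seed in capitals, holds abundant members of both ends, the members that fell furthest in OIR P29 against OIR P14, and both arms of the neighbours miR-376b and miR-376c, which are compared further on.
miR-127-3p: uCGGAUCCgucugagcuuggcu
miR-434-3p: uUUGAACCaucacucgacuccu
miR-411-5p: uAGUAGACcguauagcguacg
miR-410-3p: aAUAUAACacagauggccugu
miR-770-5p: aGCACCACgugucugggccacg
miR-770-3p: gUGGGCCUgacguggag
miR-412-3p: cUUCACCUgguccacuagccgu
miR-1193-3p: uAGGUCACccguuuuacuaucc
miR-370-3p: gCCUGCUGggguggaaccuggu
miR-493-5p: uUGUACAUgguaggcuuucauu
miR-376b-5p: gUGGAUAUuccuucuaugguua
miR-376c-5p: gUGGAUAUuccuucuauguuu
miR-376b-3p: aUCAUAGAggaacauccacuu
miR-376c-3p: aACAUAGAggaaauuucacgu

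The 71 sequences carried 68 different seeds. Shared seeds joined 3 pairs: AGGUCAC in miR-370-5p and miR-1193-3p, AUACAAG in miR-381-3p and miR-539-3p, and UGGAUAU in miR-376b-5p and miR-376c-5p. The first 18 bases of miR-376b-5p and miR-376c-5p are identical, so reads of these 2 may have been split uncertainly between their names. The median member was 22 bases long with 47.6% G and C, against 22 bases and 47.6% over the other 352 miRNAs with a sequence. An A opened 27 of the 71 member sequences and 96 of the other 352, and a U opened 26 and 139 of them.

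Behind the seed, the 7 letters GGUCCAC, searched on the mature strand, stood in 5 of the 71 member sequences and in 0 of the other 352. All 5 were 3p arms of the miR-379 to miR-410 stretch, shown here with these letters in capitals to mark a likeness that the rule did not use. The hairpins of miR-379, miR-411, miR-380 and miR-758 start 245.366 to 249.195 kb from that of miR-770, and miR-412 starts at 281.251 kb. This count gets no test, because letters picked from the members would set them apart by construction.
miR-379-3p: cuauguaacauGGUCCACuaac
miR-411-3p: uauguaacacGGUCCACuaa
miR-380-3p: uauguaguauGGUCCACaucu
miR-758-3p: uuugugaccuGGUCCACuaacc
miR-412-3p: cuucaccuGGUCCACuagccgu

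Total counts were 13088233 to 13973950 in OIR P29, 12694068 to 15260603 in OIR P14 and 11808893 to 12568341 in sham P14. The photoreceptor miRNA miR-182 took 60.4% ± 1.22, 66.5% ± 1.53 and 63.3% ± 0.894 of the counts in OIR P29, OIR P14 and sham P14 (SD, n = 3 each). Photoreceptor, pigment epithelium and neuron markers had counts in every library, as retina should. Both arms of endothelial miR-126a summed to 480 to 535 CPM in OIR P29, 165 to 304 CPM in OIR P14 and 630 to 728 CPM in sham P14, where CPM is the count per 1000000 of the library size, scaled by TMM over the 9 libraries. Mural cell miR-143-3p and miR-145-5p summed to 1475 to 1541, 297 to 603 and 1156 to 1288 CPM in the same 3 groups. Erythroid markers summed to 11.5 to 18.8 CPM in OIR P29, 1.55 to 1.88 CPM in OIR P14 and 3.76 to 8.83 CPM in sham P14, and leukocyte markers to 38.9 to 39.5, 8.35 to 12.4 and 21.9 to 29.4 CPM. Pigment epithelium markers summed to 31153 to 35605, 18390 to 23989 and 12362 to 19708 CPM, and neuron markers to 14197 to 15119, 14013 to 17126 and 14538 to 16300 CPM. Not all markers of a list moved alike. Leukocyte miR-150-5p had log2 folds of -1.83 in OIR P14 against sham P14 and 2.43 in OIR P29 against OIR P14. In the same comparisons miR-142-3p had 0.38 and -0.07, and miR-223-3p had -1.59 in the second. Of the neuron markers miR-9a-5p had -0.41 in OIR P29 against OIR P14, while miR-124-3p, miR-128-3p and miR-7a-5p had 0.36, 0.21 and 0.18. Of the photoreceptor markers miR-182 and miR-183-5p had -0.42 and -0.41 in that comparison, while miR-96-5p had 0.33. The part of these cell types in the member values was not tested. Libraries 20 and 21 of OIR P29 differed by a median absolute log2 difference of 0.0871 over the members, and each differed from library 47 by 0.159. Libraries 11 and 12 of OIR P14 differed by 0.115 in this measure, and by 0.182 and 0.161 from library 38.

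All 73 members had at least 1 count in every library. Together they took 1.46%, 1.54% and 1.33% of the counts in the 3 OIR P29 libraries, 1.05%, 1.10% and 1.25% in the OIR P14 libraries, and 1.47%, 1.56% and 1.39% in the sham P14 libraries. The means were 1.44% ± 0.108 in OIR P29, 1.14% ± 0.102 in OIR P14 and 1.47% ± 0.0810 in sham P14 (SD, n = 3 each). All OIR P14 libraries lay below all libraries of both other groups. With miR-182 left out of the total, the share was 3.64% ± 0.279 in OIR P29, 3.38% ± 0.177 in OIR P14 and 4.02% ± 0.264 in sham P14 (SD, n = 3 each), and OIR P29 then overlapped OIR P14. With the other 2 dominant miRNAs, miR-183-5p and miR-181a-5p, left out as well, the means of the OIR groups changed order. They were 6.63% ± 0.603 in OIR P29 and 7.15% ± 0.188 in OIR P14, with 8.53% ± 0.502 in sham P14 (SD, n = 3 each). The OIR P29 libraries (5.95% to 7.09%) still overlapped those of OIR P14 (6.98% to 7.35%). The separation of OIR P14 from OIR P29 in the full total also turned on miR-127-3p. Without it among the members, the shares of the full total were 0.532% to 0.588% in OIR P29 and 0.503% to 0.584% in OIR P14, which overlap. Those of sham P14 were 0.604% to 0.679%, above both. A sum over chosen members gets no test.

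**Figure D1:**
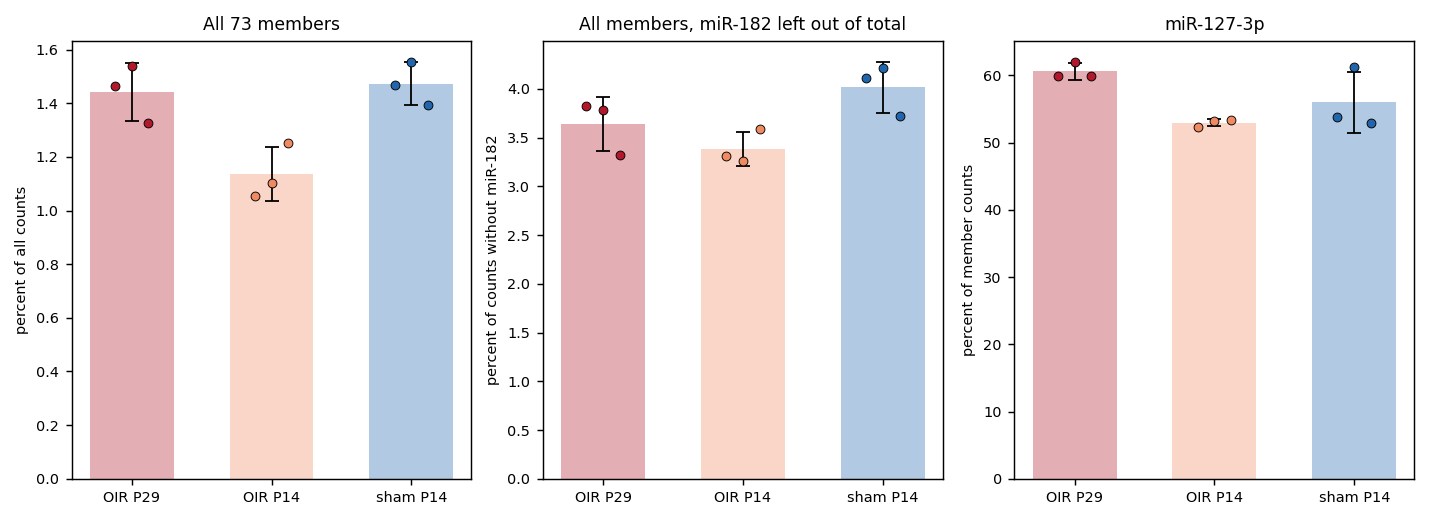
Each point is 1 library, bars are group means and error bars the SD of 3 libraries, for OIR P29, OIR P14 and sham P14. The left panel gives the percent of all counts taken by the 73 members (means of 1.44%, 1.14% and 1.47%), the middle panel the same with miR-182 left out of the total (3.64%, 3.38% and 4.02%), and the right panel the percent of member counts taken by miR-127-3p (60.6%, 52.9% and 56.0%).

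Most of the output of the cluster was 1 molecule. miR-127-3p, which lies antisense to Rtl1 and pairs with it in full, was the 8th most abundant of all 465 miRNAs, at a mean of 7605 CPM over the 9 libraries. It took 60.6% ± 1.25 of the member counts in OIR P29, 52.9% ± 0.528 in OIR P14 and 56.0% ± 4.56 in sham P14 (SD, n = 3 each). By library its share ran from 59.9% to 62.0% in OIR P29, from 52.3% to 53.3% in OIR P14, and from 52.9% to 61.2% in sham P14, where library 27 held the highest value. OIR P29 and OIR P14 did not overlap, while sham P14 covered a range that reached into both.

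The next member, miR-434-3p, reached 2603 CPM. Below it came miR-411-5p at 692 CPM, miR-410-3p at 442 CPM, miR-136-3p at 419 CPM, miR-136-5p at 249 CPM, miR-541-5p at 173 CPM, miR-300-3p at 164 CPM, miR-434-5p at 147 CPM and miR-409a-3p at 98.7 CPM, each the mean of 9 libraries. Of the neighbours in this order, miR-410-3p and miR-136-3p do not keep their places: miR-136-3p was above miR-410-3p in OIR P29 (426 ± 20.2 against 295 ± 36.0 CPM) and below it in OIR P14 (383 ± 38.1 against 512 ± 6.13 CPM) and sham P14 (447 ± 14.8 against 518 ± 18.5 CPM; SD, n = 3 each). The order of miR-541-5p and miR-300-3p also turned: miR-541-5p had 133.6 ± 1.66 CPM in OIR P29, below the 155 ± 8.61 CPM of miR-300-3p in all 3 libraries, but 182.2 ± 19.9 against 158 ± 11.4 CPM in OIR P14 and 204 ± 37.8 against 178 ± 20.5 CPM in sham P14, where their ranges overlap (SD, n = 3 each). Over the whole cluster 2 members passed 1000 CPM, 9 passed 100 CPM and 38 stayed under 10 CPM. The miR-770 to miR-136 end held 81.4% to 86.9% of the member counts in a library, and miR-370 held at most 0.0584%.

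**Figure D2:**
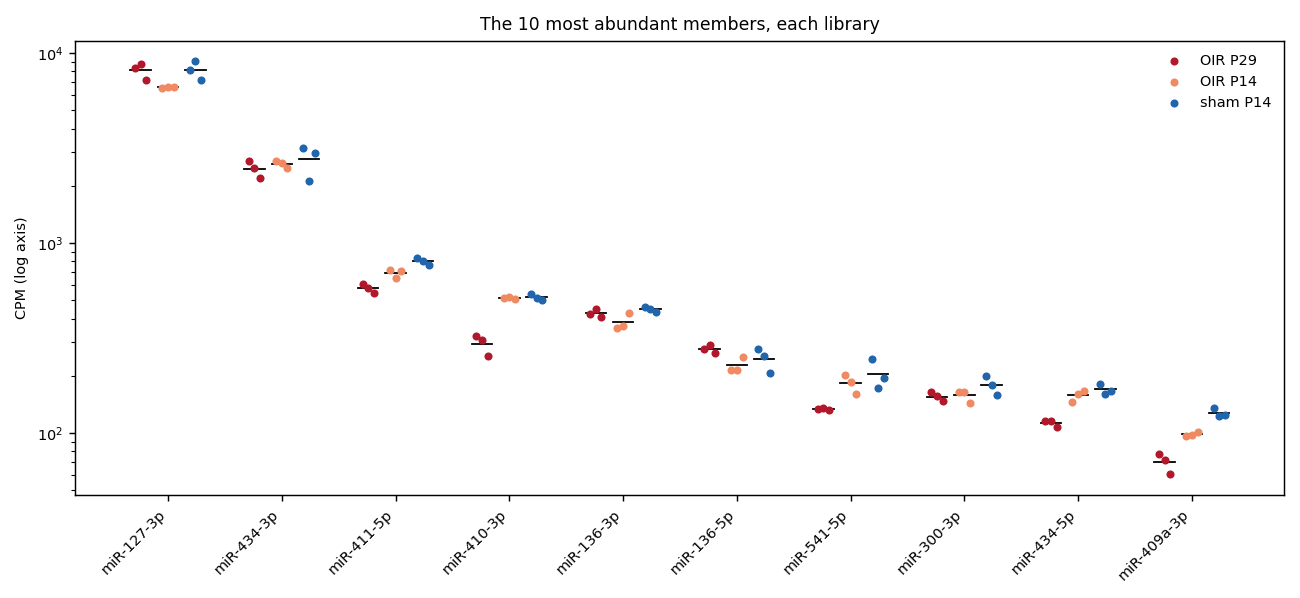
Points are the CPM of single libraries on a log axis for the 10 most abundant members, with OIR P29, OIR P14 and sham P14 side by side and a black line at each group mean. miR-410-3p stands lower in OIR P29 (295 CPM) than in OIR P14 (512 CPM) and sham P14 (518 CPM). The means of miR-434-3p are closer (2455, 2605 and 2749 CPM), with sham P14 libraries from 2124 to 3163 CPM.

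At postnatal day 14 the study set retinopathy against control retinas of one age. No member was called by edgeR's quasi-likelihood F test at a Benjamini-Hochberg adjusted p under 0.05: 0 of 69 members tested were called, against 1.69% of all 415 miRNAs tested. Without adjustment 6 members had edgeR p under 0.05, all lower in OIR P14, against 9.16% of all miRNAs in either direction, 6.27% lower and 2.89% higher. No member was called more than 2-fold lower, against 1.45% of all. DESeq2 called 1 member, miR-134-5p, lower. The other 4 members had too few counts for the filter: miR-370-5p, miR-300-5p, miR-154-3p and miR-377-5p, whose counts ranged from 1 to 15 in the libraries of all groups.

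Most member folds were negative in OIR P14. The log2 folds ran from -0.71 for miR-673-5p to 0.31 for miR-493-3p, with a median of -0.12, against -0.03 over all miRNAs tested, and 54 of 69 were negative, against 54.7% of all. With library totals alone as the scale the members' median was -0.29 and that of all miRNAs -0.21. The distance between them was -0.09 in both scalings. A change of scale shifts all folds nearly alike, so it could hardly alter this distance. Leaving out 1 library gave distances of -0.14 to -0.08. In 13 members the highest OIR P14 library was below the lowest sham P14 library, against 11.3% of all miRNAs in that direction and 15.2% in either, and 0 members lay wholly above, against 3.86%. The median SE of a member's log2 fold was 0.16, so a typical difference of this size was not detectable for a single member.

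miR-134-5p, which represses the kinase Limk1 in the dendritic spines of rat hippocampal neurons, had the smallest p. It had 400, 478 and 429 counts in the OIR P14 libraries, against 530, 653 and 685 counts in the sham P14 libraries, and these ranges did not overlap. The log2 fold was -0.55 ± 0.13 (SE), with edgeR's Benjamini-Hochberg adjusted p = 0.0969. That value ran from 0.0156 to 0.339 over 14 alternatives, and DESeq2 (0.0156), library totals alone (0.0442), a fit of all 9 libraries (0.0467) and the authors' deposited table (0.0499) passed the threshold. In OIR P29 the counts were 467, 530 and 444, which overlap those of OIR P14, with a log2 fold of -0.06 ± 0.11 (SE, edgeR's adjusted p = 0.70).

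The next smallest p were those of miR-409a-3p (log2 fold -0.34 ± 0.10 SE, edgeR's adjusted p = 0.181), miR-127-3p (-0.27 ± 0.09 SE, 0.341), miR-673-3p (-0.50 ± 0.19 SE, 0.407) and miR-411-3p (-0.32 ± 0.12 SE, 0.407), each wholly below sham P14. miR-127-3p had 84248, 84938 and 84635 counts in OIR P14, against 93419, 119647 and 88500 counts in sham P14. Among the sham P14 libraries, 27 held the highest value and 51 lay nearest to OIR P14. Positive folds with the smallest p were 0.31 for miR-493-3p, 0.15 for miR-485-5p, 0.15 for miR-412-5p, 0.15 for miR-493-5p and 0.10 for miR-376a-5p, and none of these members passed the test. With library totals alone the folds of miR-485-5p, miR-412-5p, miR-493-5p and miR-376a-5p were negative.

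OIR P29 was set against OIR P14 to ask how retinopathy retinas differ at the later age, with the same OIR P14 libraries that were compared with sham P14. Here edgeR's quasi-likelihood F test called 32 of 68 members tested at a Benjamini-Hochberg adjusted p under 0.05, 8 higher and 24 lower in OIR P29. In all, 46.7% of the 424 miRNAs tested were called, so the members' 47.1% is close to the background. In the higher direction 11.8% of the members were called, against 22.9% of all miRNAs, and in the lower direction 35.3%, against 23.8%. The median log2 fold was -0.20 over the members and -0.01 over all, and 23 of the 68 folds were positive, against 48.6% of all.

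This split depends on the scaling. With library totals alone, 12 members were called higher and 9 lower, with a median of 0.06 over the members and 0.25 over all miRNAs. These calls are 17.6% and 13.2% of the members, against 34.9% higher and 12.5% lower of all miRNAs under that scaling. The members' median minus that of all miRNAs was -0.19 in both scalings. A change of scale shifts all folds nearly alike, so it could hardly alter this distance. The distance was -0.24 without OIR P14 library 12, -0.12 without OIR P14 library 38 and -0.08 without libraries 38 and 47. With TMM and all 6 libraries, larger changes were fewer. Here 4 members were called more than 2-fold lower, against 7.55% of all miRNAs, and 0 more than 2-fold higher, against 7.78%. The groups did not overlap in 40 of 68 members, against 57.3% of all: in 12 members with OIR P29 above, against 30.2%, and in 28 with OIR P29 below, against 27.1%. Leaving out any 1 library gave 3 to 10 members called higher and 16 to 20 lower, with the fewest higher calls, 3, without OIR P29 library 20 or OIR P14 library 12 and 4 without OIR P29 library 21 or OIR P14 library 11.

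**Figure D3:**
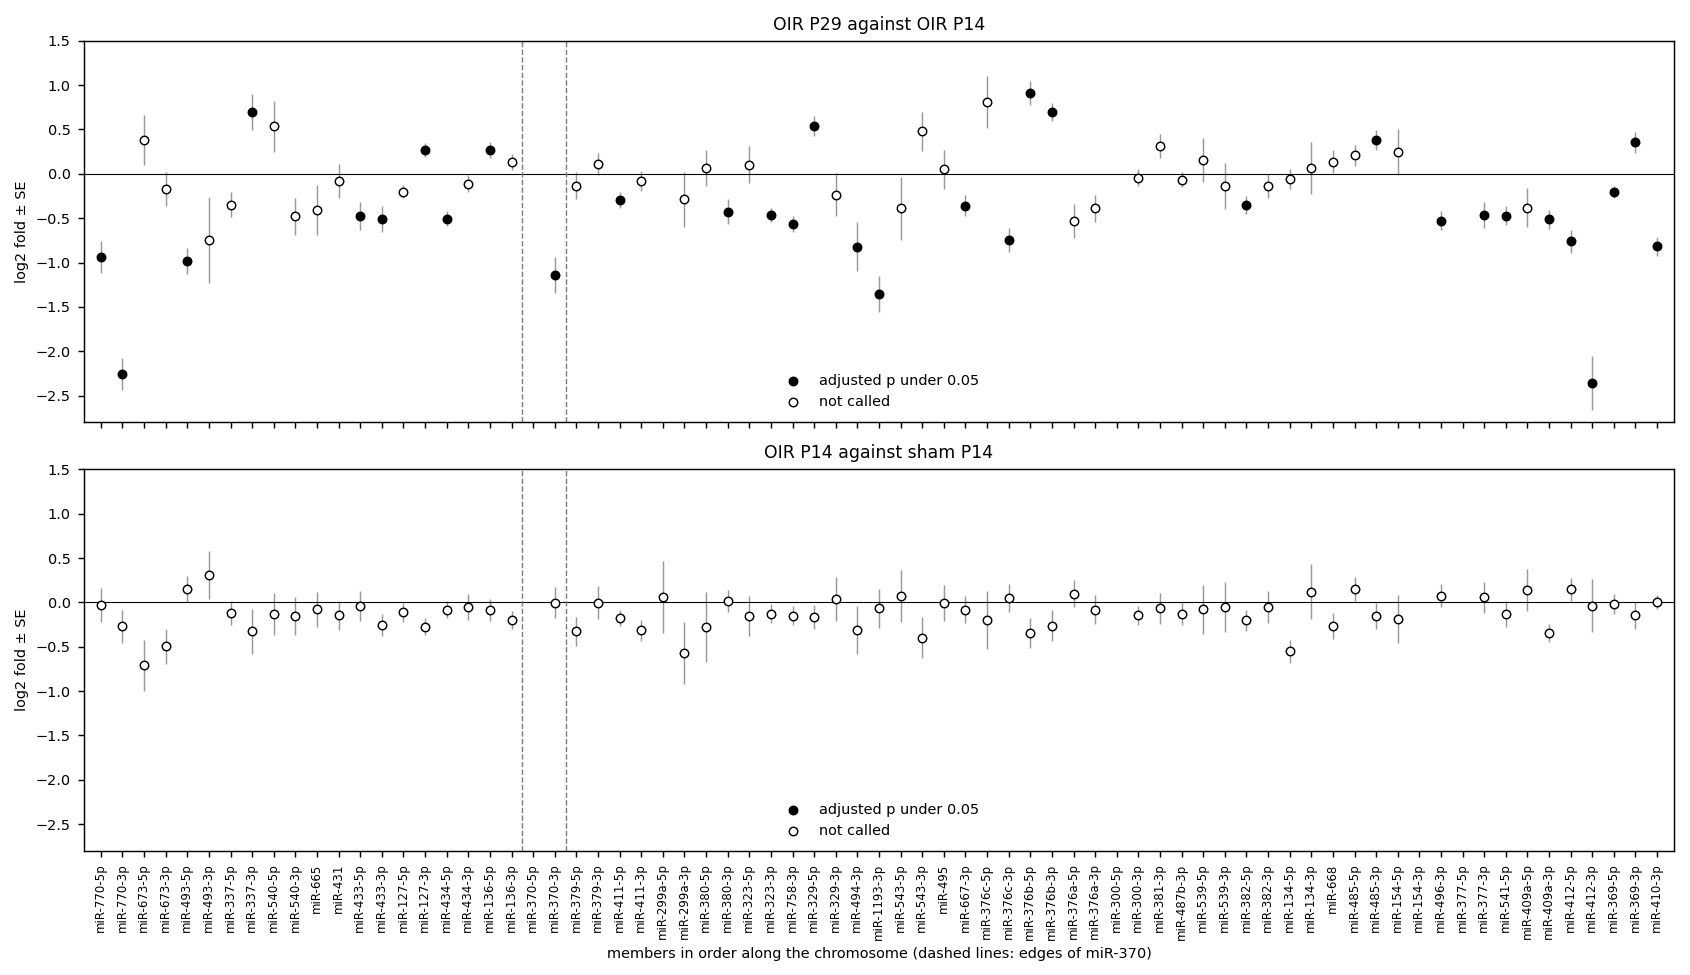
Log2 fold with its SE for each tested member in order along chromosome 6, OIR P29 against OIR P14 above and OIR P14 against sham P14 below, with filled points called by edgeR at adjusted p under 0.05. Dashed lines mark off miR-370. Calls in both directions are spread along the cluster in the upper panel, and the lower panel has 0 filled points. The upper panel has 8 calls higher and 24 lower, 11.8% and 35.3% of the members, against 22.9% and 23.8% of all miRNAs.

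Calls in both directions were found at both ends of the cluster. Of all miRNAs tested 22.9% were called higher and 23.8% lower, so calls in both directions are also common elsewhere. At the miR-770 to miR-136 end 3 members were called higher, 6 lower and 11 not called, with a median log2 fold of -0.28. In the miR-379 to miR-410 stretch 5 were called higher, 17 lower and 25 not called, with a median of -0.14. Of the 2 miR-370 arms, miR-370-3p was called lower and miR-370-5p had too few counts. The summed level of the distal stretch was 1814 ± 101 CPM in OIR P29, 2283 ± 26.3 CPM in OIR P14 and 2540 ± 143 CPM in sham P14. That of the miR-770 to miR-136 end was 11529 ± 1048, 10160 ± 76.0 and 11965 ± 686 CPM in the same groups (SD, n = 3 each).

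miR-770, inside Meg3, fell in both arms. miR-770-3p had 18, 20 and 16 counts in OIR P29, 79, 71 and 75 counts in OIR P14 and 77, 81 and 106 counts in sham P14. It was 4.76 times lower in OIR P29 than in OIR P14 (log2 fold -2.25 ± 0.18 SE, edgeR's Benjamini-Hochberg adjusted p = 0.000106), and no library of OIR P29 came near either P14 group. The other arm, miR-770-5p, had 14, 16 and 18 counts in OIR P29 and 26, 27 and 27 counts in OIR P14, a log2 fold of -0.94 ± 0.18 (SE, edgeR's adjusted p = 0.00413; DESeq2's adjusted p = 0.0867).

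miR-412-3p, near the far end, changed by a similar amount. Its counts were 6, 8 and 9 in OIR P29, 24, 35 and 45 in OIR P14 and 22, 48 and 35 in sham P14. Every OIR P29 library lay below every P14 library, and the log2 fold of OIR P29 against OIR P14 was -2.36 ± 0.30 (SE), 5.13 times lower with edgeR's adjusted p = 0.000798. Such low counts leave a wide counting error in the size of the fold. miR-1193-3p had 27, 34 and 24 counts in OIR P29 and 70, 55 and 64 counts in OIR P14, 2.55 times lower (-1.35 ± 0.20 SE, edgeR's adjusted p = 0.00156). miR-370-3p had 32, 45 and 36 counts in OIR P29 and 86, 69 and 62 counts in OIR P14, 2.21 times lower (-1.14 ± 0.20 SE, edgeR's adjusted p = 0.00303). In both of these the OIR P29 libraries lay below all OIR P14 and all sham P14 libraries.

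Among abundant members the clearest fall was that of miR-410-3p, the last of the cluster, which represses Vegfa in mouse retina. It had 4467, 4424 and 3920 counts in OIR P29, 6650, 6594 and 6464 counts in OIR P14 and 6158, 6808 and 6184 counts in sham P14. All OIR P29 libraries were below every P14 library, while the P14 groups overlapped. The log2 fold of OIR P29 against OIR P14 was -0.82 ± 0.10 (SE, 1.76 times lower, edgeR's adjusted p = 0.00075), and that of OIR P14 against sham P14 was 0.01 ± 0.08 (SE). In all, 8 of the 24 lower calls held under each of 15 alternatives: miR-770-3p, miR-412-3p, miR-1193-3p, miR-370-3p, miR-410-3p, miR-493-5p, miR-412-5p and miR-758-3p. miR-493-5p, for example, had 70, 73 and 61 counts in OIR P29 and 117, 125 and 110 counts in OIR P14, a log2 fold of -0.99 ± 0.15 (SE, edgeR's adjusted p = 0.00156) without overlap. miR-494-3p, with 10 to 23 counts in OIR P29 and OIR P14, lost its call when any 1 library was left out (log2 fold -0.55 to -0.93, edgeR's adjusted p from 0.0661 to 0.202).

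Smaller falls were called among other abundant members. miR-434-5p had 1594, 1662 and 1662 counts in OIR P29 and 1890, 2054 and 2124 counts in OIR P14, without overlap (log2 fold -0.50 ± 0.08 SE, edgeR's adjusted p = 0.00193). miR-409a-3p had 1072, 1043 and 932 counts in OIR P29 and 1245, 1250 and 1300 counts in OIR P14 (-0.51 ± 0.11 SE, edgeR's adjusted p = 0.00551), and miR-541-5p had a log2 fold of -0.47 ± 0.11 (SE, edgeR's adjusted p = 0.00814). These 3 calls were lost with library totals alone, where the folds were -0.24, -0.25 and -0.19. The fall of miR-411-5p (-0.30 ± 0.09 SE, edgeR's adjusted p = 0.0245) was not called with library totals alone (-0.03), nor without OIR P29 library 20, 21 or 47 or OIR P14 library 11 (edgeR's adjusted p from 0.0529 to 0.152). Of the 10 most abundant members, miR-434-3p (-0.11 ± 0.09 SE), miR-300-3p (-0.04 ± 0.10 SE) and miR-136-3p (0.13 ± 0.09 SE) were not called, and all 3 overlapped between the ages.

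The rises were smaller than the largest falls. miR-376b rose in both arms: miR-376b-5p had 239, 243 and 242 counts in OIR P29, 104, 131 and 99 in OIR P14 and 151, 151 and 113 in sham P14, and miR-376b-3p had 27.7, 27.7 and 26.7 CPM in OIR P29, 16.2, 15.4 and 18.3 CPM in OIR P14 and 22.2, 23.7 and 15.2 CPM in sham P14. For both arms every OIR P29 library was above all P14 libraries. The log2 folds of OIR P29 against OIR P14 were 0.91 ± 0.14 and 0.70 ± 0.10 (SE, edgeR's adjusted p = 0.00156 and 0.00129). miR-329-5p, whose hairpin is among those induced by neuronal activity in rat neurons, had 158, 161 and 189 counts in OIR P29 and 97, 102 and 105 counts in OIR P14, without overlap (0.54 ± 0.11 SE, edgeR's adjusted p = 0.00576). These 3 of the 8 higher calls held under each of the 15 alternatives.

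The other 5 higher calls were less steady. miR-127-3p had 114658, 126440 and 111055 counts in OIR P29 against 84248, 84938 and 84635 in OIR P14, with no overlap and a log2 fold of 0.27 ± 0.08 (SE, edgeR's adjusted p = 0.0252). Its call was lost without OIR P29 library 20 (edgeR's adjusted p = 0.0559) or 21 (0.0722) and without OIR P14 library 11 (0.052) or 12 (0.0536), while the fold in these fits was 0.27 to 0.31. With quantile scaling it was 0.06. miR-136-5p (0.27 ± 0.09 SE, edgeR's adjusted p = 0.0406), miR-337-3p (0.70 ± 0.20 SE, 0.024) and miR-369-3p (0.36 ± 0.12 SE, 0.0395), an arm that in human cells binds the AU-rich element of the TNF messenger RNA, also lost their calls without either of those OIR P29 libraries or either of those OIR P14 libraries. For miR-136-5p the adjusted p was then 0.1 to 0.146, for miR-337-3p 0.0538 to 0.0846 and for miR-369-3p 0.0832 to 0.11, and miR-369-3p also lost its call without library 47 (0.0857). miR-485-3p (0.38 ± 0.11 SE, edgeR's adjusted p = 0.0241) lost its call without library 20, 11 or 12 (0.0643, 0.0565 and 0.0881).

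The 3p arms of some neighbouring hairpins changed in opposite directions. Between miR-376c and miR-376b lie 0.6 kb, yet miR-376c-3p had 64, 68 and 70 counts in OIR P29 and 94, 90 and 110 counts in OIR P14, a log2 fold of -0.74 ± 0.14 (SE, edgeR's adjusted p = 0.00324), beside the rise of miR-376b-3p. With library totals alone the fold of miR-376c-3p was -0.48 and was not called (edgeR's adjusted p = 0.0668). The 5p arms did not part in this way. miR-376c-5p had a log2 fold of 0.81 ± 0.29 (SE, edgeR's adjusted p = 0.0519), beside the rise of miR-376b-5p, whose first 18 bases it shares. The ratio of miR-376b-3p to miR-376c-3p counts, which needs no scaling between libraries, was 5.97, 5.88 and 5.87 in OIR P29, 2.23, 2.18 and 2.13 in OIR P14 and 2.76, 3.45 and 1.97 in sham P14. All OIR P29 libraries lay above all P14 libraries, and sham P14 ran on either side of OIR P14. miR-376a, 0.45 kb beyond miR-376b, had log2 folds of -0.53 ± 0.19 (5p) and -0.39 ± 0.16 (3p, SE), neither of which passed edgeR's test.

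The same was seen at the end of the cluster, where 0.07 kb separates miR-412 from miR-369 and 0.281 kb separates miR-369 from miR-410. miR-369-3p was called higher in OIR P29 between miR-412, lower in both arms, and miR-410-3p, also lower. The other arm, miR-369-5p, was lower in OIR P29 on the TMM scale, at 33.9, 36.3 and 33.7 CPM against 37.9, 39.4 and 40.6 CPM in OIR P14. This fall was small and not steady: over 15 alternatives its log2 fold ran from -0.20 to 0.06, and none of them called it. The count ratio of miR-369-3p to miR-410-3p was 0.115, 0.123 and 0.155 in OIR P29, 0.0472, 0.0581 and 0.0671 in OIR P14 and 0.0659, 0.0692 and 0.0561 in sham P14. Again the OIR P29 libraries stood above all others. These pairs were chosen after their values were seen and get no test.

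**Figure D4:**
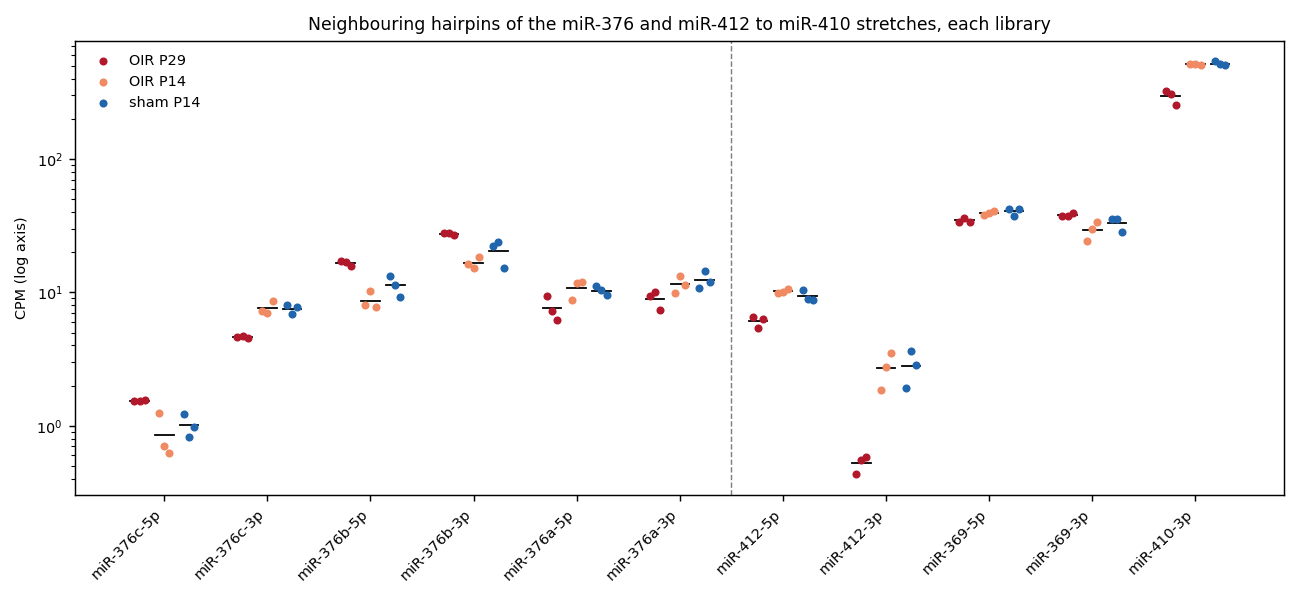
Points are the CPM of single libraries on a log axis, with black lines at group means, for the miR-376 hairpins (left of the dashed line) and for miR-412, miR-369 and miR-410 (right of it). miR-376b-3p stands higher in OIR P29 (27.4 CPM) than in OIR P14 (16.6 CPM), while miR-376c-3p, miR-412-3p and miR-410-3p stand lower.

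The balance between the arms of a hairpin was compared as the log2 ratio of 5p to 3p counts within a library, which does not depend on library size. Between OIR P14 and sham P14 limma's moderated test found 0 of 26 member hairpins changed, against 0.0% of all 124 hairpins tested, and 0 of the 26 had an unadjusted limma p under 0.05, against 1.61% of all. Between OIR P29 and OIR P14 it found 8 of 25 changed (32.0%), against 19.4% of all 124, with Benjamini-Hochberg adjustment over all hairpins, and 13 of 25 had an unadjusted limma p under 0.05, against 30.6%. Of the 8, 4 moved toward the 3p arm, namely miR-337, miR-369, miR-127 and miR-434, and 4 toward the 5p arm, namely miR-412, miR-376c, miR-770 and miR-329. In each of the 8 the OIR P29 libraries did not overlap the OIR P14 libraries, which selection by a small p on these same libraries nearly ensures.

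In miR-337 the 5p arm made up 71.1% ± 1.54 of the counts in OIR P29, 83.6% ± 2.03 in OIR P14 and 81.6% ± 4.89 in sham P14 (SD, n = 3 each). The log2 ratio differed by -1.05 ± 0.17 between OIR P29 and OIR P14 (SE, limma's adjusted p = 0.00575), with miR-337-3p called higher and miR-337-5p at a log2 fold of -0.35 ± 0.14 (SE, edgeR's adjusted p = 0.0729). In miR-770 the 5p arm made up 47.05% ± 5.12 in OIR P29, 26.3% ± 1.41 in OIR P14 and 23.5% ± 4.01 in sham P14 (SD, n = 3 each). Both arms were lower in OIR P29 and the 3p arm more so, a difference of 1.31 ± 0.22 in the log2 ratio (SE, limma's adjusted p = 0.00589).

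miR-412 moved the same way as miR-770, with 92.0% ± 1.57 of its counts from the 5p arm in OIR P29, 79.3% ± 4.58 in OIR P14 and 77.0% ± 6.78 in sham P14 (SD, n = 3 each; difference of 1.52 ± 0.29 SE, limma's adjusted p = 0.0102). In miR-376c the 5p arm was 24.9% ± 0.568 in OIR P29, 10.1% ± 3.99 in OIR P14 and 11.7% ± 1.29 in sham P14 (SD, n = 3 each; 1.58 ± 0.32 SE, limma's adjusted p = 0.0116). The miR-376c value rests on 21 to 24 counts of the 5p arm in OIR P29 and 8 to 16 in OIR P14, and on an arm nearly identical to miR-376b-5p, which rose. In miR-369 the 5p arm made up 47.6% ± 1.51 in OIR P29, 57.4% ± 3.29 in OIR P14 and 55.2% ± 4.32 in sham P14, so that the more abundant arm was 3p in every OIR P29 library and 5p in every P14 library.

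In miR-127 and miR-434 the 3p arm dominated throughout. The 5p arm made up 0.484% ± 0.0320 of miR-127 in OIR P29, 0.669% ± 0.0281 in OIR P14 and 0.601% ± 0.0603 in sham P14, and 4.41% ± 0.276, 5.72% ± 0.581 and 5.94% ± 0.966 of miR-434 in the same groups (SD, n = 3 each). The log2 ratio differed by -0.47 ± 0.09 for miR-127 and -0.39 ± 0.10 for miR-434 (SE, limma's adjusted p = 0.0116 and 0.0285). The calls of miR-337, miR-770, miR-412 and miR-376c held when any 1 library was left out. That of miR-127 was lost without library 21 (limma's adjusted p = 0.0641) or 12 (0.0518), that of miR-369 without library 11 (0.0525), that of miR-434 without library 20, 21, 12 or 38 (0.059 to 0.0701), and that of miR-329 (0.74 ± 0.21 SE, adjusted p = 0.0369) without library 20, 21, 11 or 38 (0.059 to 0.114). The count was 5 without OIR P29 library 21, and 8 with all libraries.

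**Figure D5:**
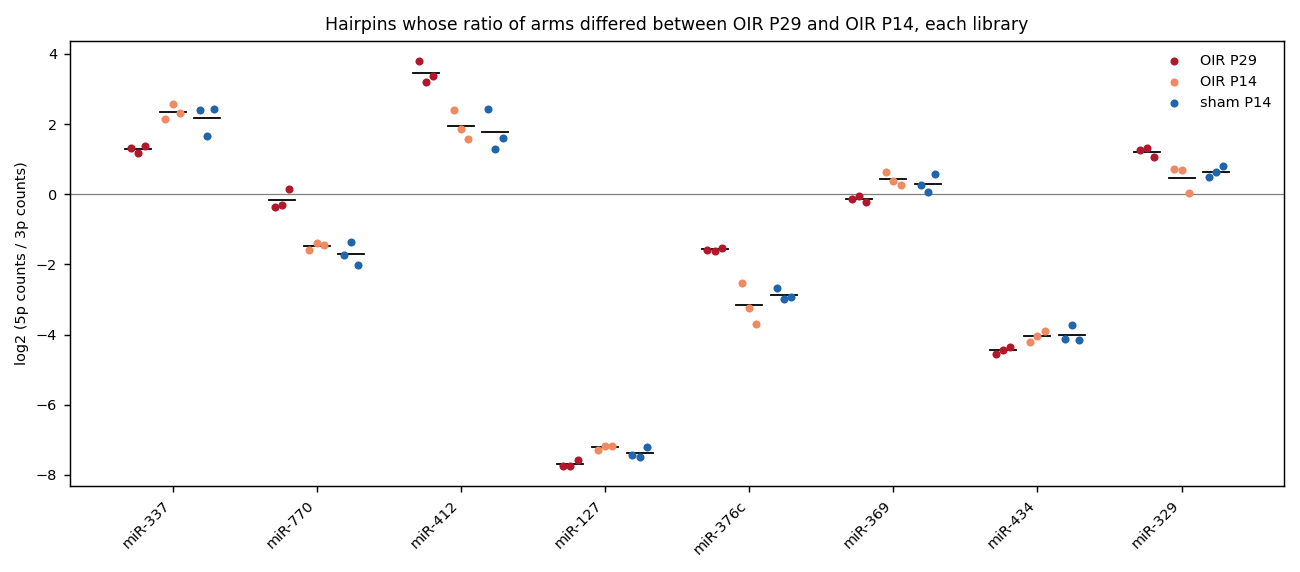
Log2 ratio of 5p to 3p counts in single libraries, with black lines at group means, for the 8 hairpins whose ratio differed between OIR P29 and OIR P14. Values above 0 mean more 5p than 3p counts. OIR P29 lies below OIR P14 in miR-337, miR-127, miR-369 and miR-434 and above it in miR-770, miR-412, miR-376c and miR-329.

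Over the 30 hairpins with both arms listed, 9 gave more 5p than 3p counts in every library, 15 gave more 3p than 5p, and in 6 the larger arm differed between libraries. At P29 3 of 27 tested 5p arms were called higher and 9 lower, and of 37 tested 3p arms 5 were called higher and 15 lower, against 22.9% higher and 23.8% lower of all miRNAs. The 5 sequences with GGUCCAC also varied: miR-412-3p, miR-758-3p and miR-380-3p were called lower (log2 folds of -2.36 ± 0.30, -0.57 ± 0.09 and -0.43 ± 0.14 SE). The call of miR-380-3p was lost with library totals alone (-0.15), with quantile scaling (-0.33) and in the fit of all 9 libraries (-0.37), and without OIR P29 library 21 or 47 or OIR P14 library 11 or 12 (edgeR's adjusted p from 0.12 to 0.151). miR-379-3p (0.11 ± 0.12 SE) and miR-411-3p (-0.08 ± 0.11 SE) were not called in this comparison. Of the pairs with a shared seed, miR-376b-5p was called higher and miR-376c-5p had a log2 fold of 0.81 ± 0.29 (SE, edgeR's adjusted p = 0.0519). miR-381-3p and miR-539-3p had log2 folds of 0.31 ± 0.14 and -0.14 ± 0.26 (SE), and neither passed edgeR's test. miR-1193-3p was called lower, while its seed partner miR-370-5p had too few counts to be tested.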

How the data were processed

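The authors deposited 2 tables, 1 per comparison, with whole-number read counts per mature miRNA, per the file headers. No source used here gives the aligner, build or annotation. The authors' deposited log2 fold and p-value columns (with a false discovery rate) served only as an alternative, and limma is named in the submitters' processing notes. Columns carry library codes: codes in both tables were taken as OIR P14, and the others as the second group of their table. Members and lists were chosen with earlier results of these data known.

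All miRNAs of a comparison were fitted on its 6 libraries in R 4.3.3 with edgeR 4.0.16 (filterByExpr with a minimum count of 10 and total of 15, scaling by TMM, quasi-likelihood F test, Benjamini-Hochberg adjustment, called under 0.05). The SE is the log2 fold over the square root of F. Arm ratios, log2((5p + 0.5)/(3p + 0.5)), were tested with limma 3.58.1 over all hairpins with both arms tested. The pipeline was tested on simulated data. Replicate libraries differed beyond counting error (chi-square over degrees of freedom, 77.4 to 229). Intervals and limits of counting cover counting error only.

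Members named are the 10 most abundant, the 10 largest called folds per direction (or the 5 smallest p), both arms of hairpins with a changed ratio, and those printed as sequences. Members named beyond this rule were chosen after their values were seen. Alternatives were DESeq2 1.42.0, its size factors, library totals, quantile scaling with limma-voom, no filter, all 9 libraries together, miR-182 left out, other pseudocounts for the ratios, each library left out and, added after seeing the data, libraries 38 and 47 left out and the authors' table.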

Additional observations from a re-analysis of the deposited data

How the results depend on the processing

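No paired analysis was possible because the count columns carry library codes that cannot be tied to the numbered replicates of the labels. Low counts limit the folds: 38 members had under 10 CPM. For OIR P14 against sham P14, members called lower numbered 1 with DESeq2, library totals alone, all 9 libraries and the authors' deposited table. With library totals alone the members' median log2 fold was -0.29, and miR-410-3p (-0.17), miR-485-5p (-0.025), miR-412-5p (-0.032), miR-493-5p (-0.032) and miR-376a-5p (-0.075) turned negative, as did miR-410-3p in the authors' deposited table (-0.017). With quantile scaling miR-136-5p (0.062) and miR-434-5p (0.020) turned positive. Leaving out 1 library gave log2 folds of -0.21 to 0.059 for miR-434-3p, -0.25 to 0.019 for miR-541-5p and -0.0049 to 0.033 for miR-410-3p. For OIR P29 against OIR P14, library totals alone gave 9 lower calls, a median of 0.062 and positive folds for miR-434-3p (0.16), miR-300-3p (0.23), miR-127-5p (0.064), miR-369-5p (0.060) and miR-329-3p (0.0090). Quantile scaling gave 5 higher calls (7.35% of the members, against 21.7% of all miRNAs) and -0.027 for miR-136-5p. The fit of all 9 libraries gave 0.0078 for miR-300-3p. Leaving out 1 library gave 3 to 10 higher and 16 to 20 lower calls, 5 to 8 changed ratios of arms, and log2 folds of -0.11 to 0.056 for miR-300-3p, -0.15 to 0.023 for miR-434-3p and -0.35 to 0.053 for miR-329-3p. Without libraries 38 and 47, which stand apart from their groups, 10 of 68 members were called higher and 17 lower. Over all miRNAs 22.8% were called higher and 25.8% lower in that fit, so lower calls were no more frequent among the members. The authors' deposited table had 8 members higher and 21 lower, 27 of them shared with edgeR. These are 10.96% and 28.8% of the 73 members, against 20.6% higher and 20.4% lower of all 465 miRNAs in that table. The summed share was 3.64%, 3.38% and 4.02% in OIR P29, OIR P14 and sham P14 without miR-182 in the total, 6.63%, 7.15% and 8.53% without miR-182, miR-181a-5p and miR-183-5p, and 0.568%, 0.534% and 0.646% without miR-127-3p among the members. The causes of these differences were not tested.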

Other observations

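The tables also list miRNAs of the region that the selection rule does not name. RefSeq places miR-341, miR-6331 and both arms of miR-666 on the same strand between the outermost members. miR-341 had 3179, 3080 and 2493 counts in OIR P29, 4783, 5050 and 4478 counts in OIR P14 and 4764, 5792 and 5054 counts in sham P14. All OIR P29 libraries lay below all P14 libraries, and the log2 fold of OIR P29 against OIR P14 was -0.90 ± 0.14 (SE, edgeR's Benjamini-Hochberg adjusted p = 0.00156). miR-666-5p, with 45, 47 and 32 counts in OIR P29 against 59, 90 and 79 in OIR P14, was also called lower (-1.07 ± 0.23 SE, edgeR's adjusted p = 0.00699). miR-666-3p (-0.43 ± 0.22 SE) and miR-6331 (0.29 ± 0.23 SE) were not called. None of these 4 was called between OIR P14 and sham P14 (edgeR's adjusted p from 0.565 to 0.836).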
